A study of Mus musculus with 8 samples.

Results

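The 9 genes described here encode muscle proteins that sit at the Z-disc and the costamere and are known as sensors or targets of mechanical stress in striated muscle. They are the muscle ankyrin repeat genes Ankrd1, Ankrd2 and Ankrd23, the LIM domain genes Csrp3, Fhl1 and Fhl2, the Xin repeat genes Xirp1 and Xirp2, and the filamin C gene Flnc. They were chosen by symbol among the 22880 genes counted in the series, at a time when the genotype differences of these same 8 libraries were already known. Their genotype differences are therefore given as a description, without p-values. The companion lists (paralogs, binding partners, chaperones and regulators) and the marker lists were also chosen with earlier results of these data known. Adjusted p-values printed for companion genes are therefore descriptive. Neither they nor the counts of called companions and markers are independent evidence.

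The libraries come from the soleus, a calf muscle rich in slow fibres. There were 4 control mice (Dnm2 +/+) and 4 Dnm2 wt/K562E mice, called mutant mice below, each a separate male of 2 months on the C57BL/6 background (C57BL/6J in the study's methods). Dnm2 encodes dynamin 2, a GTPase that cuts vesicles from membranes, and the K562E substitution lies on 1 of its alleles in every cell of the mutant mice, because it was introduced into the germ line. Apart from 1 LoxP site that stayed in a neighbouring intron of the mutant allele, no further transgene or treatment is named for either group. The comparison asks how the heterozygous mutation changes transcript levels in the soleus, where the mutant mice were studied for a muscle disease.

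At the Z-disc, where the thin filaments of neighbouring sarcomeres are anchored, and in the I-band spring of titin, several proteins are held under tension and can also travel to the nucleus. Muscle ankyrin repeat proteins bind titin near the protease calpain 3, LIM proteins bind alpha-actinin, telethonin or titin, and Xin proteins and filamin C gather at sites where myofibrils are damaged or remodelled. Transcription of several of these genes is known to respond to stretch, overload or denervation, and mutations in CSRP3, FHL1 and FLNC cause human muscle or heart disease.

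To show the sequence at which these genes start, the 250 bases before the annotated start were taken from RefSeq (GRCm38.p6) and read for 5 motifs on both strands. A window was found for 8 of the 9 genes, in 13 windows in all because some genes have several starts. Printed here is the window of Xirp2 and the first window of Fhl2, the genes that were called higher and lower below and whose window holds no annotated exon, and a 30-base stretch before Ankrd1, the gene with the largest fold change. The Ankrd1 window holds 6 annotated exons, and the printed stretch lies within the annotated span of the gene. Of the 13 windows, 8 hold no annotated exon. Capitals mark the motif matches.
Xirp2 (chr2:67445752-67446001, plus strand): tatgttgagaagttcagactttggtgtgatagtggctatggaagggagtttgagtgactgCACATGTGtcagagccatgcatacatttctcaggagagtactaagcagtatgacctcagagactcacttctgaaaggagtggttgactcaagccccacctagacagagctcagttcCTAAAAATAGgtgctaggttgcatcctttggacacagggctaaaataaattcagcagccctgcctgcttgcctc
Fhl2, first window (chr1:43163962-43164211, minus strand): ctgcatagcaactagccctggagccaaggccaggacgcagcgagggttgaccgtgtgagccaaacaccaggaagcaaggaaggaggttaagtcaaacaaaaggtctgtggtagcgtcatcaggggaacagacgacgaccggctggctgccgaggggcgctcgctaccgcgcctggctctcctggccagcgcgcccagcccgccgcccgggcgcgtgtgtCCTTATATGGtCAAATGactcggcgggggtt
Ankrd1 (chr19:36119944-36119973, minus strand): aagtctGGAATGaaaattCACCTGcctctg

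The capitals in the Xirp2 window are a pair of overlapping E boxes, CANNTG, the letters bound by the MyoD family of muscle regulators, and a MEF2 site, which begins 74 bases before the start. Those in the Fhl2 window are a CArG box, the element of serum response factor, which lies 31 to 22 bases before the start, and an E box 20 to 15 bases before it. The Ankrd1 stretch, 129 to 100 bases before the start, holds GGAATG, which is CATTCC (the element of the TEAD factors) on the other strand, and then an E box. A second GGAATG lies 210 to 205 bases before the same start.

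Across the 13 windows, a CArG box was found in 3 windows (1 of Fhl1 and both of Fhl2), against 1.47% of 32851 mouse windows of the same length. The MEF2 site was found in 2 windows (Xirp2 and the second of Fhl2) against 2.92% of all windows. CATTCC was found in 3 windows, those of Ankrd1, Ankrd23 and the second of Flnc, against 12.6% of all windows. TATAAA, whose letters can overlap a MEF2 site, was found in 3 of the 13 and in 12.4% of all windows, and CANNTG in 10 of the 13 and in 66.2%. Such a match describes the letters in the window, and binding of a factor there was not measured.

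Levels are given as normalized CPM, CPM being the usual unit of counts relative to library size, after each library was scaled by the TMM factors of edgeR. Total counts per mouse were between 33407430 and 48832814, so that the least abundant gene of the group, Ankrd1 in controls, still rested on 296 to 402 reads per mouse. Of the 22880 genes, 14001 passed the filter on low counts, all 9 genes among them. A gene was called when the quasi-likelihood test of edgeR gave a Benjamini-Hochberg adjusted p under 0.05 and the log2 fold change was at least 0.58 in either direction, the thresholds that the study used. Each log2 fold change below is that of Dnm2 wt/K562E over control mice, with its standard error (SE).

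Of the 9 genes, Ankrd1 and Xirp2 were called higher in mutant mice, where 12.9% of all tested genes were called higher. Fhl2 was the 1 gene called lower, where 7.85% of all tested genes were. At any fold, 4 of the 9 passed the adjusted p in the higher direction (22.2% of all tested genes) and 2 in the lower direction (21.7%). In 6 of the 9, the values of the 4 mutant mice lay wholly outside those of the 4 controls, which held for 41.2% of all tested genes. The median log2 fold change of the 9 was 0.24, and that of all tested genes was 0.007. Because the genes were chosen with this contrast known, nothing is read from these counts. In whole muscle, a lower level could come from fewer cells of a type or from less RNA per cell, and these cannot be told apart.

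**Figure D1:**
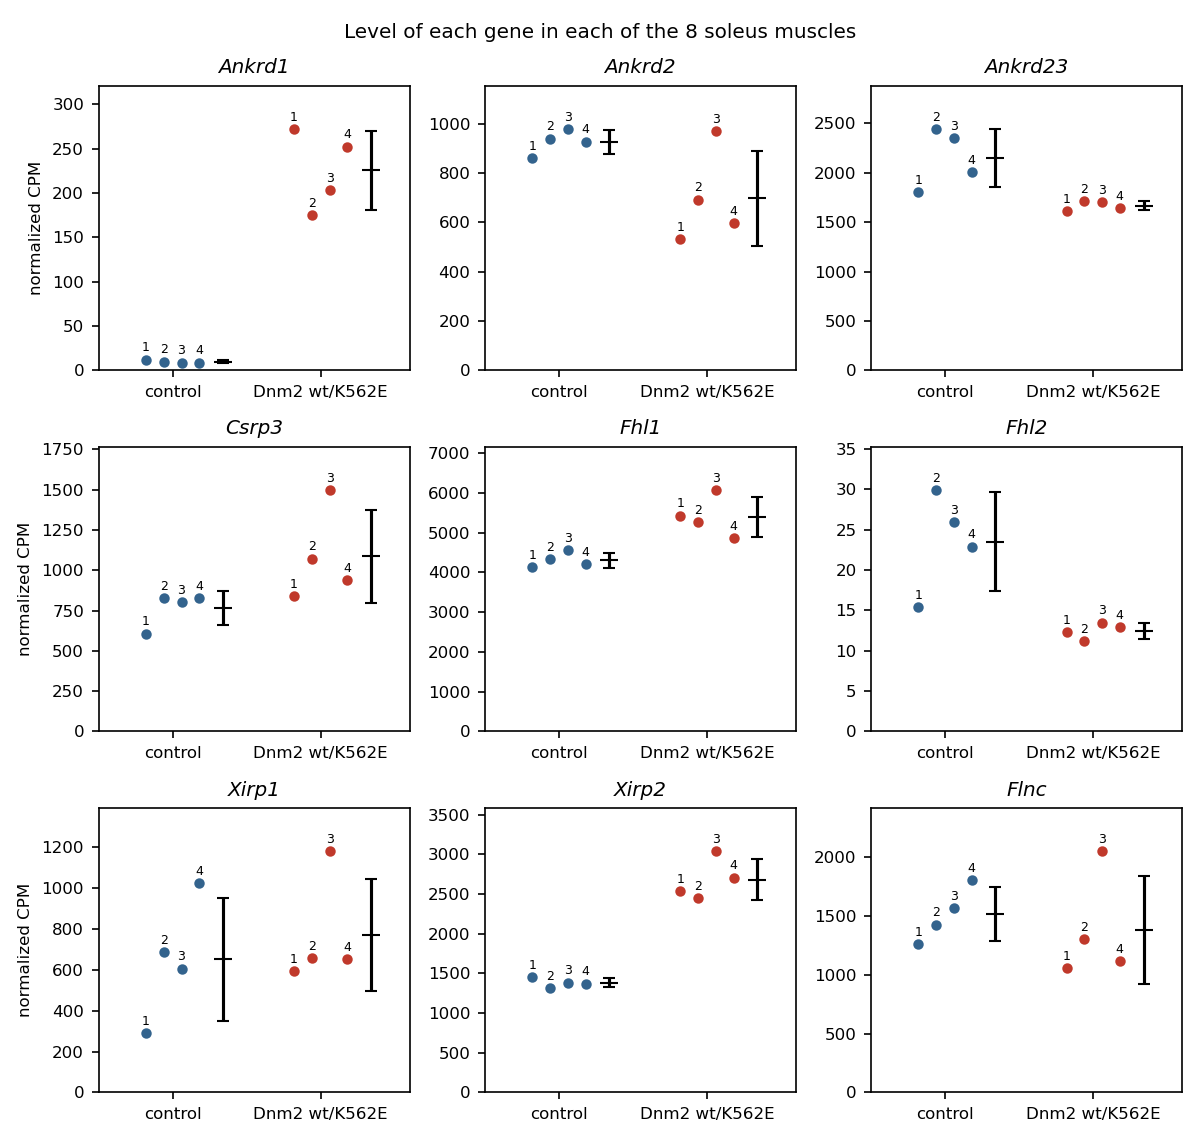
Level of each of the 9 genes in normalized CPM (vertical axis, linear and from 0, scaled separately for each gene) in controls 1 to 4 (blue) and mutant mice 1 to 4 (red), with the mean and SD of each genotype as a black bar (n = 4 each). The genotypes are far apart for Ankrd1 and clearly apart for Xirp2, Fhl2 lies lower in all mutant mice, and mutant mouse 3 stands above the other mice of its genotype for Ankrd2, Csrp3, Xirp1 and Flnc.

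Among the ankyrin repeat genes, Ankrd1 was called higher, and Ankrd2 and Ankrd23 were not called. Ankrd1 (ENSMUSG00000024803, chromosome 19, 36111961 to 36120099, minus strand) encodes the cardiac ankyrin repeat protein, which binds titin and is a co-factor of transcription, abundant in heart and low in healthy limb muscle. Its level was 12.0, 9.71, 8.85 and 8.71 normalized CPM in controls 1 to 4 and 271.7, 174.7, 203.0 and 252.4 in mutant mice 1 to 4. All controls were near 10 and all mutant mice were far above them, with mice 1 and 4 the highest. The mean went from 9.81 ± 1.51 to 225.5 ± 44.5 (SD, n = 4 each), a log2 fold change of 4.52 (SE 0.16) or 23.0-fold, the largest of the 9.

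Since Ankrd1 is a heart gene and the embryonic heart and regenerating fibres share transcripts, marker genes of both were read beside it. Of the cardiomyocyte markers Myh6, Nppa, Nppb, Myl7, Tnni3 and Ryr2, 4 passed the filter and 1, Nppb, was called higher (12.9% of all tested genes). The summed level of these markers was 56.7 to 61.5 normalized CPM in controls and 44.3 to 56.7 in mutant mice. Among the defining heart genes, Myl7 had 1 read in 1 control and none in the other mice, and Nppa had no read in controls and 1, 4, 0 and 6 reads in mutant mice. Nppb, the gene of the B-type natriuretic peptide, had no read in any control and 20, 19, 14 and 21 reads in mutant mice 1 to 4. It therefore passed the filter on low counts only through the mutant mice. A call in the higher direction was then nearly fixed in advance, and nothing is read from it. Nearly all of the summed level was Myh6 (55.7 to 59.9 in controls and 42.6 to 55.4 in mutant mice), of whose 31-base stretches 29.2% also lie in other counted genes, chiefly Myh7. The part of heart genes in the Ankrd1 difference was not tested.

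Of the 6 listed markers of regenerating fibres, 3 were called higher and 1 lower, where 12.9% and 7.85% of all tested genes were. The summed level of Myh3, Myh8, Myl4, Myod1, Myog and Pax7 was 69.8 to 84.1 normalized CPM in controls and 545.9 to 811.6 in mutant mice. The embryonic myosin heavy chain Myh3 had 403.4, 302.2, 271.5 and 344.0 normalized CPM in mutant mice 1 to 4, and the embryonic myosin light chain Myl4 had 301.4, 226.6, 194.4 and 273.0. Myog, the regulator of myoblast differentiation, had 67.1, 46.6, 47.9 and 61.5. In each of Myh3, Myl4 and Myog, as in Ankrd1, mouse 1 was the highest of the mutant mice and mouse 4 was next. Mouse 1 was the highest in 26.7% of all tested genes. Mice 1 and 4 also came first in Myh8, but not in Myod1 or Pax7. This order was read from the values and was not tested, and its share over all tested genes was not counted. Myh8 (22.7 ± 2.94 in controls and 24.1 ± 3.51 in mutant mice) and Myod1 (11.2 ± 2.01 and 8.77 ± 1.90) overlapped between genotypes and were not called. Pax7, a marker of satellite cells, was lower, with 6.79 ± 1.89 in controls and 1.64 ± 0.752 in mutant mice. The part of regenerating fibres in the Ankrd1 difference was not tested.

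Ankrd2 (ENSMUSG00000025172, chromosome 19, 42036000 to 42045110, plus strand) encodes the skeletal muscle member of the family, which is most abundant in slow fibres. Its level was 860.1, 938.0, 976.2 and 925.9 normalized CPM in controls and 531.8, 691.5, 968.9 and 595.5 in mutant mice. Mutant mice 1, 2 and 4 lay below all controls, whereas mouse 3 lay within their range, so the genotypes overlapped. The means were 925.1 ± 48.3 and 696.9 ± 192.9, with a log2 fold change of -0.41 (SE 0.15), which was not called. Without mouse 3 the log2 fold change was -0.61, and the gene was then called lower.

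Ankrd23 (ENSMUSG00000067653, chromosome 1, 36530188 to 36536883, minus strand) encodes the diabetes-related member, which also binds titin. In controls 1 to 4 it had 1804, 2438, 2351 and 2006 normalized CPM, and in mutant mice 1 to 4 it had 1614, 1714, 1702 and 1640.2. All mutant mice were below all controls and close to each other, with control 1 the nearest to them. The means were 2150 ± 296.8 and 1668 ± 48.1, with a log2 fold change of -0.37 (SE 0.09), which was under the fold needed for a call. Of the 31-base stretches in its transcripts, 78.0% also lie in other annotated gene models, mainly Gm42417 at the same place, but only 0.966% lie in other genes of the counted table.

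The slow fibre markers Myh7, Tnnt1, Tnni1, Tnnc1, Myl2 and Myl3 were all abundant in controls, and 3 of the 6 were called lower and none higher. Their summed level was 15884 to 18809 normalized CPM in controls and 8834 to 11744 in mutant mice. The fast fibre markers had 5 of 7 called lower and none higher, with a summed level of 34104 to 35375 in controls and 22457 to 27225 in mutant mice. Of all tested genes, 7.85% were called lower and 12.9% higher. The part of fibre genes in the lower levels of Ankrd2 and Ankrd23 was not tested.

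Because counts grow with transcript length, the 3 ankyrin repeat genes were set against each other by their counts per kilobase of exon within each mouse, a share that does not depend on scaling between mice. Ankrd1 made up 0.290%, 0.194%, 0.177% and 0.194% of the sum in controls 1 to 4 and 8.12%, 4.64%, 4.53% and 7.17% in mutant mice 1 to 4. The share of Ankrd1 was thus below 1% in every control and above 4% in every mutant mouse. Ankrd2 held 50.5% ± 2.44 in controls and 46.2% ± 6.33 in mutant mice, and Ankrd23 held 49.2% ± 2.47 and 47.7% ± 4.86 (SD, n = 4 each). Both ranges overlapped between genotypes, and mouse 3 of the mutant group had the highest share of Ankrd2 (54.8%) and the lowest of Ankrd23 (40.6%) of all 8 mice.

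The sum of the 3 genes was 1613 ± 147.3 normalized CPM per kilobase in controls (1429 to 1733) and 1309 ± 173.1 in mutant mice (1160.0 to 1553), so these ranges overlapped too. Despite its 23.0-fold difference, Ankrd1 remained the least abundant of the 3 in all 8 mice, at 78.1 ± 15.4 normalized CPM per kilobase in mutant mice against 612.4 ± 169.5 for Ankrd2 and 618.3 ± 17.8 for Ankrd23.

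**Figure D2:**
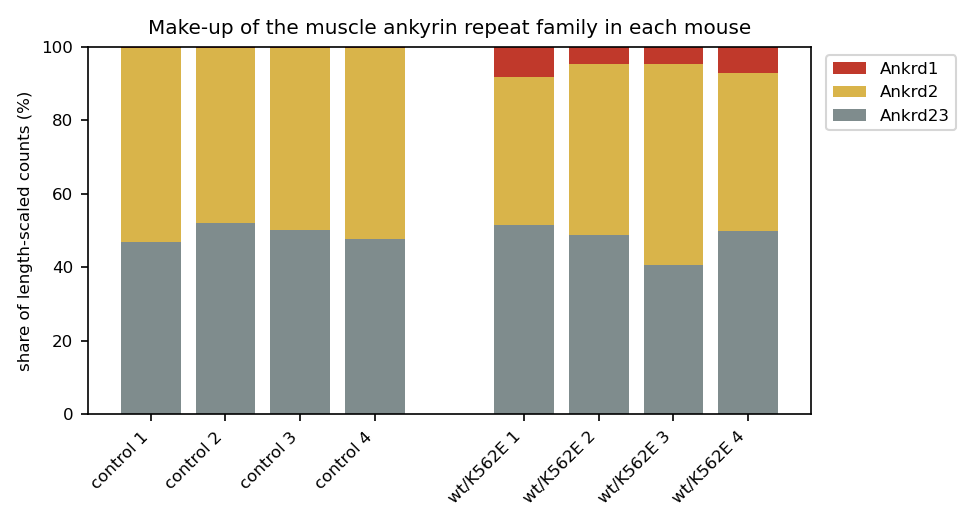
Share (%) of Ankrd1 (red), Ankrd2 (yellow) and Ankrd23 (grey) in the summed counts per kilobase of these 3 genes, 1 bar per mouse. The red segment is too thin to see in controls (0.290% at most) and takes 4.53% to 8.12% in mutant mice, while Ankrd2 and Ankrd23 divide nearly all of the rest in every mouse.

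Among the LIM genes, Csrp3 and Fhl1 were higher in all mutant mice by less than the fold needed for a call, and Fhl2 was called lower. Csrp3 (ENSMUSG00000030470, chromosome 7, 48830398 to 48848033, minus strand) encodes muscle LIM protein, which binds alpha-actinin and telethonin at the Z-disc. Its level was 607.1, 825.8, 800.0 and 827.7 normalized CPM in controls and 837.9, 1072, 1496 and 938.6 in mutant mice. The groups did not overlap, but the lowest mutant mouse and the highest control were close, and mouse 3 was well above the rest. The means were 765.1 ± 106.1 and 1086 ± 289.4, with a log2 fold change of 0.51 (SE 0.17). Without mouse 3 it was 0.31, and without mutant mouse 1 it was 0.61 and the gene was called higher.

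Fhl1 (ENSMUSG00000023092, chromosome X, 56731787 to 56793346, plus strand) encodes a protein of LIM domains that takes part in a titin-bound stretch-sensing complex and is the main FHL protein of skeletal muscle. Controls 1 to 4 had 4134, 4330.2, 4564 and 4206 normalized CPM, and mutant mice 1 to 4 had 5425, 5269, 6064 and 4857. All mutant mice were above all controls, with mouse 3 the highest. The means were 4309 ± 188.6 and 5404 ± 501.3, with a log2 fold change of 0.33 (SE 0.08), or 1.25-fold.

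Fhl2 (ENSMUSG00000008136, chromosome 1, 43123074 to 43196984, minus strand) encodes the FHL protein that is abundant in heart and acts as a co-factor of several transcription factors. Its level was 15.4, 29.8, 25.9 and 22.9 normalized CPM in controls and 12.3, 11.2, 13.5 and 12.9 in mutant mice. All mutant mice were below all controls, and control 1, the lowest of its genotype, was the nearest to them. The means were 23.5 ± 6.13 and 12.5 ± 0.962, with a log2 fold change of -0.92 (SE 0.17), or 0.530 times the control level. Leaving out 1 mouse at a time gave values from -1.08 (without control 1) to -0.79 (without control 2). The 2 low-level genes of the 9, Ankrd1 and Fhl2, therefore differed in opposite directions.

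Smooth muscle and vessel cells could also hold Fhl2 transcripts, so their markers were read beside it. Of the markers Myh11, Acta2, Tagln, Cnn1, Rgs5 and Pdgfrb, 4 of 6 were called lower and none higher (7.85% and 12.9% of all tested genes). The summed level of these markers was 1591 to 1745 normalized CPM in controls and 1122 to 1316 in mutant mice. Of 4 endothelial markers, 1 was called lower, with sums of 810.4 to 849.9 in controls and 576.3 to 661.6 in mutant mice. None of the smooth muscle or endothelial markers is at 0 in any mouse, and their part in the Fhl2 difference was not tested.

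Of the Xin repeat genes, Xirp2 was called higher and Xirp1 was not called. Xirp2 (ENSMUSG00000027022, chromosome 2, 67446002 to 67526614, plus strand) encodes myomaxin, a large actin-binding protein of the Z-disc periphery. Its level was 1455, 1316, 1383 and 1371 normalized CPM in controls and 2531, 2449, 3036 and 2703 in mutant mice. The controls lay close together and all mutant mice were well above them. The means were 1381 ± 57.2 and 2680.0 ± 259.9, with a log2 fold change of 0.96 (SE 0.08), or 1.94-fold, and it stayed between 0.89 and 1.00 when any 1 mouse was left out.

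Xirp1 (ENSMUSG00000079243, chromosome 9, 120013755 to 120023598, minus strand) encodes Xin, which is enriched at myotendinous junctions and at sites of fibre damage. In controls 1 to 4 it had 289.0, 686.1, 605.4 and 1025 normalized CPM, and in mutant mice 1 to 4 it had 592.3, 658.2, 1179 and 653.3. The genotypes overlapped widely, and the highest control was 3.55 times the lowest. The means were 651.3 ± 302.2 and 770.8 ± 274.0, with a log2 fold change of 0.24 (SE 0.33). Its sign changed to -0.01 without control 1 and to -0.04 without mutant mouse 3, so Xirp1 had no direction at this spread.

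Filamin C, the product of Flnc (ENSMUSG00000068699, chromosome 6, 29433256 to 29461883, plus strand), crosslinks actin and ties the Z-disc to the membrane, and it binds both Xin proteins. Its gene had 1262, 1426, 1566 and 1805 normalized CPM in controls and 1057, 1304, 2049 and 1113 in mutant mice. The highest and the lowest values of all 8 mice were both in mutant mice, mouse 3 and mouse 1. The means were 1515 ± 230.3 and 1381 ± 457.6, with a log2 fold change of -0.13 (SE 0.19), which was not called. It was -0.39 without mouse 3 and 0.07 when scaled by library size alone, a scaling that moved the median of all tested genes from 0.007 to 0.22.

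Tendon markers were read beside Xirp1, since its product is known at the myotendinous junction. Of Tnmd, Scx, Mkx, Fmod, Comp and Chad, 5 of 6 were called higher and none lower (12.9% and 7.85% of all tested genes). The sum was 327.4 to 736.6 normalized CPM in controls and 933.5 to 1292 in mutant mice. All 5 fibroblast markers and all 5 macrophage markers were called higher as well, with sums of 1810.1 to 2741 and 48.6 to 89.2 in controls and 3886 to 5034 and 106.9 to 182.5 in mutant mice. None of these markers was at 0 in any mouse, and their part in the levels of the 9 genes was not tested. Of 4 adipocyte and 5 Schwann cell markers none was called by the edgeR quasi-likelihood test, its exact test or DESeq2. The Schwann cell marker Mbp was lower in all mutant mice (edgeR adjusted p = 0.0141). Its log2 fold change of -0.24 was under the fold for a call.

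Placed by normalized CPM per kilobase of exon, the 9 genes spanned a wide range of levels. In controls the order was Fhl1 (1160 ± 50.8), Ankrd2 (812.9 ± 42.5), Ankrd23 (797.1 ± 110.0), Csrp3 (286.5 ± 39.7), Flnc (161.1 ± 24.5), Xirp2 (115.3 ± 4.77), Xirp1 (111.5 ± 51.8), Fhl2 (12.4 ± 3.23) and Ankrd1 (3.40 ± 0.523). The neighbours Ankrd2 and Ankrd23 overlapped over mice and were not ordered by these levels, and neither was Xirp1 against Xirp2 or Flnc. In mutant mice the order changed at 3 places. Xirp2 (223.7 ± 21.7) passed Flnc (146.9 ± 48.7), with ranges that still overlapped, Ankrd23 came just ahead of Ankrd2 within their spread, and Ankrd1 (78.1 ± 15.4) passed Fhl2 (6.57 ± 0.507), with ranges far apart.

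The genes also varied among mice of 1 genotype, and several did so in the same mice. Mutant mouse 3 was the highest of the 4 mutant mice in 7 of the 9 genes, all but Ankrd1 and Ankrd23, whereas it was the highest in 21.4% of all tested genes. In Ankrd2, Csrp3, Xirp1 and Flnc its level was 0.51, 0.50, 0.67 and 0.62 above the mutant mean on the log2 scale. These 4 genes also shared their whole order, with mouse 3 above mouse 2, mouse 4 and mouse 1 in turn, an order found in 5.68% of all tested genes. Among the listed companions it was found in 6 of 22 binding partners, in 2 of 7 chaperones (Hspb1 among them), in 1 of 9 tested regulators and in 0 of 7 paralogs. This order was singled out after the values had been seen and was not tested.

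Among controls, mouse 1 was the lowest in 7 of the 9, all but Ankrd1 and Xirp2, against 28.3% of all tested genes. Control 4 was the highest for Csrp3, Xirp1 and Flnc, though for Csrp3 it was nearly level with control 2 (827.7 against 825.8 normalized CPM). It also had 3134 normalized CPM of Myh4, the fastest myosin heavy chain, against 162.8 to 426.4 in the other controls. Of the 31-base stretches of Myh4, 30.4% also lie in other counted genes, such as Myh1. A link between Myh4 and the 9 genes was not tested. The map of deviations by mouse shows the 9 genes.

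**Figure D3:**
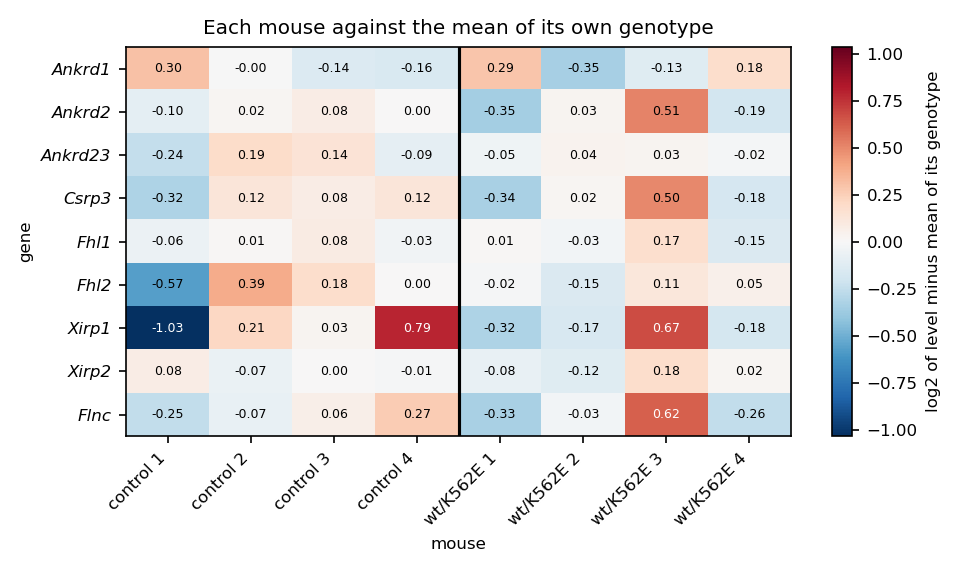
Level of each of the 9 genes in each mouse minus the mean of its own genotype, on the log2 scale of normalized CPM (colour and printed value, red above and blue below the mean). Mutant mouse 3 is above its genotype's mean by 0.50 to 0.67 for Ankrd2, Csrp3, Xirp1 and Flnc, and control 1 is below it by the most for Xirp1 (-1.03).

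The 7 listed paralogs of the LIM and filamin genes were compared next. Like the other companion lists below, they were chosen with earlier results of these data known. The adjusted p-values of these lists show how genes were called and are not independent evidence. Of the 7 paralogs, 1 was called higher and none lower, by the edgeR quasi-likelihood test as by its exact test and DESeq2. Of all tested genes, 12.9% were called higher and 7.85% lower. At an unadjusted p under 0.05, 3 paralogs were lower. Csrp2, a LIM gene of smooth muscle and of injured tissue, rose from 5.91 ± 1.61 to 9.52 ± 1.11 normalized CPM (log2 fold change 0.69, edgeR adjusted p = 0.00881), a call that was lost without control 2. Flna, the most widely expressed filamin gene, had a log2 fold change of -0.30 (edgeR adjusted p = 0.0507). Fhl3 ranged from 82.7 to 160.3 in mutant mice and from 114.2 to 147.0 in controls, with no direction (log2 fold change -0.05, and 0.16 with library size alone). At any fold, 1 paralog passed in the higher direction and 2 in the lower (22.2% and 21.7% of all tested genes).

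Of 22 listed binding partners, 3 were called higher and 4 lower, where 12.9% and 7.85% of all tested genes were. At any fold, 5 partners passed the adjusted p in the higher direction and 13 in the lower, against 22.2% and 21.7% of all tested genes. The median log2 fold change of the partners was -0.39, where that of all tested genes was 0.007. Among the 6 partners of the ankyrin repeat proteins, Des and Capn3 were called in opposite directions. Des, which encodes desmin, the intermediate filament that links Z-discs, had 2977, 3042, 3417 and 2879 normalized CPM in controls and 4773, 4845, 4701 and 6034 in mutant mice. It was higher in every mutant mouse, with a log2 fold change of 0.72 (SE 0.10, edgeR adjusted p = 1.46e-04).

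Capn3, which encodes calpain 3, the titin-bound protease of limb-girdle muscular dystrophy, fell from 167.1 ± 13.4 to 90.7 ± 3.60 normalized CPM (log2 fold change -0.88, edgeR adjusted p = 4.03e-06). Of its exonic bases, 7.69% overlap Ganc, so some of its reads may be shared with that gene. Ttn, the titin gene, was lower in all mutant mice by less than the fold for a call (log2 fold change -0.42, edgeR adjusted p = 0.00254), and so was Ybx1, a partner of Ankrd1 in transcription (-0.48, edgeR adjusted p = 6.46e-04).

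Among the 6 partners of the LIM proteins, 1 was called lower and none higher, where 7.85% and 12.9% of all tested genes were. At any fold, 5 passed the adjusted p in the lower direction and 1 in the higher, against 21.7% and 22.2% of all tested genes. Nrap, which encodes a protein of myofibril assembly that binds Csrp3, fell from 2343 ± 66.5 to 1559 ± 242.6 normalized CPM (log2 fold change -0.59, edgeR adjusted p = 7.77e-04). It lay at the edge of the fold for a call. The call was lost with library size alone (-0.38), with a filter of at least 10 counts in every mouse (-0.578), without control 3 (-0.57), without mutant mouse 1 (-0.51) and without mutant mouse 4 (-0.56). Of its exonic bases, 4.87% overlap Habp2 on the other strand. The alpha-actinin gene Actn2 had a log2 fold change of -0.50 (edgeR adjusted p = 6.01e-04). The Z-disc gene Ldb3 had -0.57 (edgeR adjusted p = 7.05e-05), the telethonin gene Tcap had -0.41 (edgeR adjusted p = 0.0454), and the cofilin gene Cfl2 had -0.36 (edgeR adjusted p = 0.00388). Smpx, a small costameric protein gene, stood on the other side with 0.52 (edgeR adjusted p = 3.53e-04), also under the fold for a call.

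Among the 10 partners of filamin C and the Xin proteins, 2 were called higher and 2 lower, where 12.9% and 7.85% of all tested genes were. Myoz1, the calsarcin gene of fast fibres, had 597.7, 586.3, 602.8 and 663.4 normalized CPM in controls and 174.7, 226.5, 237.8 and 192.7 in mutant mice. It was lower in every mutant mouse by a wide margin, with a log2 fold change of -1.56 (SE 0.10, edgeR adjusted p = 1.29e-06). Myoz2, the calsarcin gene of slow fibres, fell from 1475 ± 125.6 to 921.1 ± 46.8 (log2 fold change -0.68, edgeR adjusted p = 4.27e-05), a call that was lost with library size alone (-0.47).

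Pgm5, which encodes aciculin, a partner of filamin C and Xin at adhesion sites, rose from 43.8 ± 4.43 to 73.9 ± 4.93 normalized CPM (log2 fold change 0.75, edgeR adjusted p = 4.33e-05). Fblim1, which encodes the filamin-binding LIM protein migfilin, rose from 6.02 ± 2.12 to 11.1 ± 2.46 (log2 fold change 0.88, edgeR adjusted p = 0.0120). The delta-sarcoglycan gene Sgcd had a log2 fold change of 0.53 (edgeR adjusted p = 8.63e-04), and the myotilin gene Myot had -0.55 (edgeR adjusted p = 8.69e-05).

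Unfolded filamin C is known to be cleared with the help of BAG3 and small heat shock proteins, so 7 such genes were read beside Flnc. Hspb1 and Hspb8 were called higher and none was called lower, by edgeR as by DESeq2. Of all tested genes, 12.9% were called higher and 7.85% lower. At an unadjusted p under 0.05, 4 of the 7 chaperone genes were higher and 1 was lower. Hspb1 had 167.8, 223.3, 228.2 and 235.2 normalized CPM in controls and 402.1, 450.0, 631.8 and 440.6 in mutant mice, higher in every mutant mouse and highest in mouse 3 (log2 fold change 1.17, edgeR adjusted p = 1.03e-04). Of its 31-base stretches, 41.9% also lie in other counted genes, such as the copy Hsp25-ps1, so its reads may be divided among them. Hspb8, the partner of BAG3, rose from 290.3 ± 38.6 to 525.2 ± 59.5 (log2 fold change 0.86, edgeR adjusted p = 1.23e-04). Bag3 itself had 255.2 ± 13.1 and 243.2 ± 16.0 normalized CPM with overlapping mice (log2 fold change -0.07, and 0.14 with library size alone), and Cryab had a log2 fold change of 0.39 (edgeR adjusted p = 0.00402). Of the exonic bases of Cryab, 17.0% overlap Hspb2 on the other strand, so some of its reads may be shared with that gene.

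Of 11 listed transcription regulators of stress-responsive muscle genes, 9 passed the filter and none was called by the quasi-likelihood test of edgeR, its exact test or DESeq2. At any fold, 3 passed the adjusted p in each direction, where 22.2% of all tested genes were higher and 21.7% lower. The same numbers of regulators held at an unadjusted p under 0.05. The Hippo effectors Yap1 and Wwtr1 were higher in all mutant mice, by a log2 fold change of 0.46 each (edgeR adjusted p = 0.00155 and 0.00124). Tead1, which encodes a DNA-binding partner of both, had -0.45 (edgeR adjusted p = 0.00847), and the serum response factor gene Srf had -0.37 (edgeR adjusted p = 0.0160). Tead1 and Srf each overlapped between genotypes, with control 1 within the range of the mutant mice. Mef2c had 0.33 (edgeR adjusted p = 0.0174). The heart regulators Nkx2-5 and Gata4 did not pass the filter: Nkx2-5 had no read in any mouse, and Gata4 had none in controls and 2, 0, 0 and 3 reads in mutant mice.

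**Figure D4:**
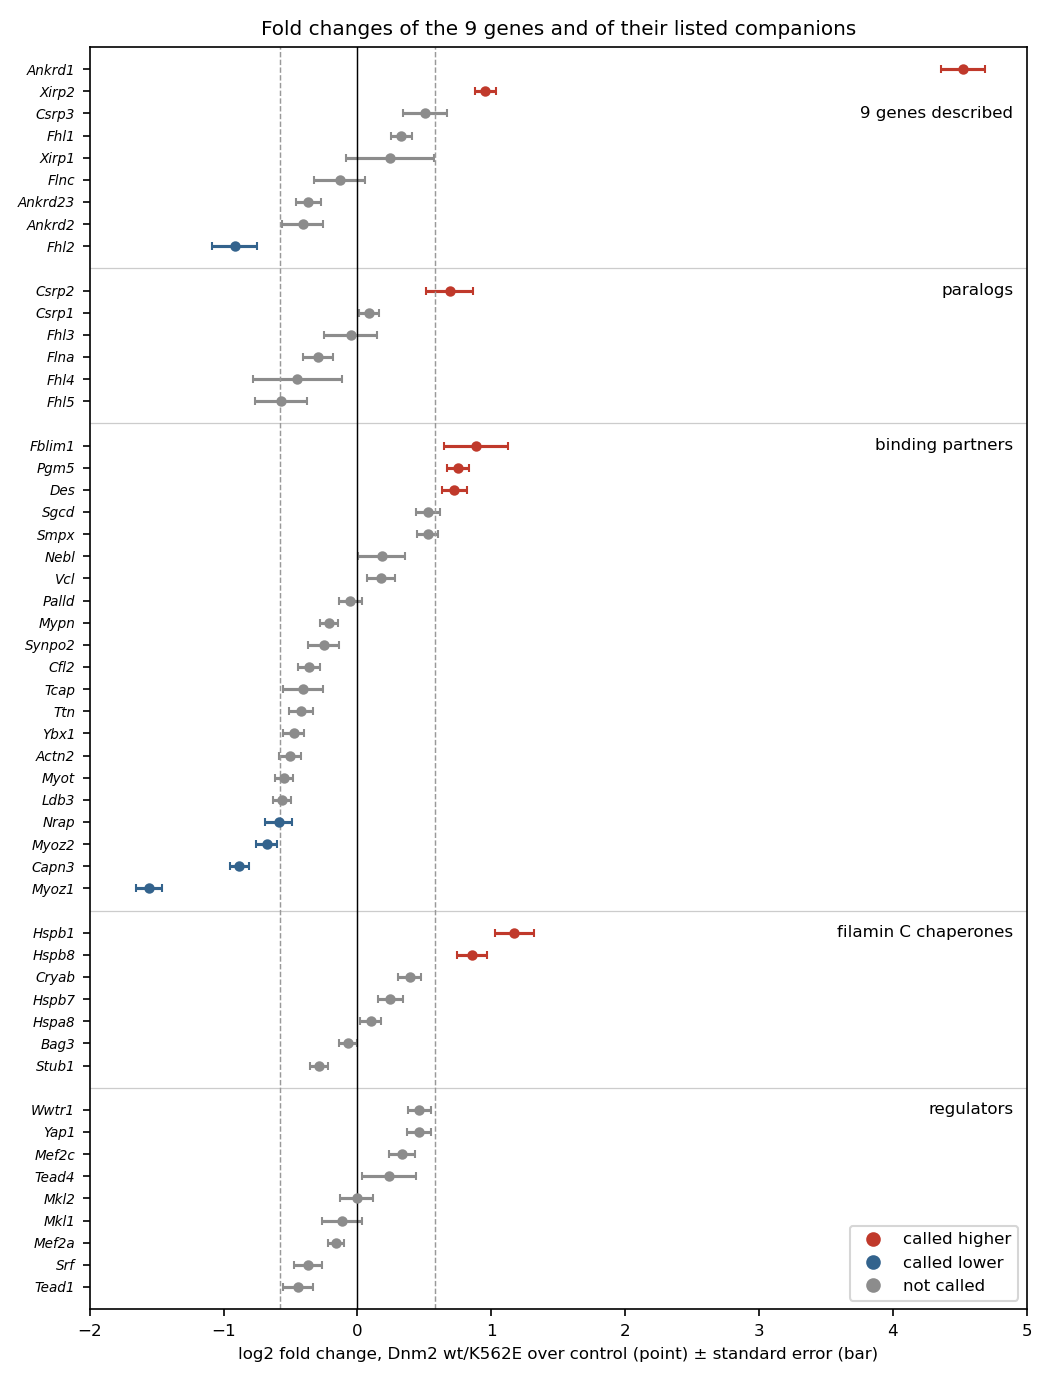
Log2 fold change of Dnm2 wt/K562E over control mice (horizontal axis, point) with its standard error (bar) for the 9 genes and tested genes of the companion lists, ordered by size within a list. Dashed lines mark the fold threshold of 0.58, and colour marks genes called higher (red), called lower (blue) or not called (grey). Mkl1 and Mkl2 are older names of Mrtfa and Mrtfb. Ankrd1 at 4.52 lies far to the right of all the other genes drawn, and most binding partners lie left of 0.

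Dnm2 itself (ENSMUSG00000033335) was read as the mutated gene. It had 68.8, 68.5, 59.2 and 68.7 normalized CPM in controls and 74.2, 76.1, 73.2 and 70.3 in mutant mice, with a log2 fold change of 0.15 (SE 0.07, edgeR adjusted p = 0.0909). Of its exonic bases, 3.88% overlap Tmed1 on the other strand. Every mutant mouse lay above every control, and the gene was not called. In 41.2% of all tested genes the mutant mice lay wholly outside the controls. The change is a single amino acid, so the total count of the gene cannot check the genotype of a mouse. The paper did so from reads over the mutated site. It reported no K562E reads in controls and similar levels of both alleles in mutant soleus.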

How the data were processed

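Soleus RNA of 4 control and 4 Dnm2 wt/K562E mice was sequenced. The authors deposited raw counts per gene and mouse, made by trimming with Trimmomatic 0.33, alignment to GRCm38 with STAR 2.5.1b and counting with featureCounts. They left out alignments of low mapping quality, counted a read for every gene it overlapped, and counted multi-mapping reads at their primary alignment, so overlapping genes share reads and genes with near-identical copies can lose or gain them. Use of strand is not given in the sources used here. The study's methods name poly A-enriched libraries and its labels a total RNA kit.

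The 9 members and all companion and marker lists were chosen with earlier results of these data known. Genes named in the text are the 9 members, Dnm2 and genes of those lists where the list is reported; a few listed genes enter the counts and are not reported by name here. Myh4 and Nppb were picked out of their lists after their values were seen. Samples were grouped by genotype as labelled, each mouse being a separate animal. Each mouse was counted as a replicate because the labels name separate animals. Libraries of a genotype were also checked for 1 library deposited under several names, and none agreed within sampling noise (smallest chi-square per degree of freedom 12.6).

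Of 22880 gene IDs, 22570 matched GENCODE M21, an annotation of the same build, which gave symbols, positions and exon lengths. With filterByExpr at its minimum count of 10 and minimum total of 15, 14001 genes were kept. The TMM factors (0.9145 to 0.9594 in controls, 1.037 to 1.103 in Dnm2 wt/K562E mice) and the quasi-likelihood F-test were computed with edgeR 4.0.16 in R 4.3.3, with Benjamini-Hochberg adjustment over the 14001 genes. Standard errors of log2 fold changes were derived from the F statistic. Per-kilobase levels use the union of annotated exons. Shared stretches were found by looking up every 31-base stretch of a gene's transcripts in those of other genes. The fit was tested on simulated data. Alternatives were the edgeR exact test, DESeq2 1.42.0, scaling by median ratios or by library size alone, other filters, replicate blocks, no fold threshold, longest-transcript lengths and leaving out each mouse.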

Additional observations from a re-analysis of the deposited data

Results flagged for a closer look

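In 11 of the values examined, 1 mouse stood apart from the other 3 of its genotype by more than Dixon's 95% critical value allows. Chance alone does so in about 1 in 20 groups, and 98 groups of 4 mice were examined. For Csrp3, control 1 had 607.1 normalized CPM where the other controls had 800.0 to 827.7. For Xirp1, Dnm2 wt/K562E mouse 3 had 1179, against 592.3 to 658.2 in the others. Dnm2 was at 59.2 in control 3 and at 68.5 to 68.9 in the other controls. Control 1 was also low for Csrp1 (70.4 against 83.6 to 84.9) and for Pgm5 (37.2 against 45.4 to 46.7). Among Dnm2 wt/K562E mice, mouse 4 was high for Des (6034 against 4701 to 4845) and for Smpx (703.7 against 566.6 to 586.1), and mouse 2 was low for Hspb8 (436.2 against 548.9 to 559.1). Control 3 had 10.5 of Myl4 where the others had 7.90 to 8.26, and control 4 had 3134 of Myh4 where the others had 162.8 to 426.4. Without control 4, the log2 fold change of Myh4 was -2.96 in place of -4.63. The share of Ankrd1 among the ankyrin repeat genes was 0.290% in control 1 and 0.177% to 0.194% in the other controls.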

How the results depend on the processing

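Ankrd1, Xirp2 and Fhl2 kept their direction and their call under every alternative run, with log2 fold changes of 4.42 to 4.74, 0.89 to 1.17 and -1.08 to -0.71. With library size alone, 2865 genes were called higher and 564 lower (1806 and 1099 with TMM), and among the lists 5 partners and 2 regulators were called higher and 2 partners lower; Csrp3 was then called (0.71), and signs turned for Flnc (0.073), Fhl3 (0.16) and Bag3 (0.14), all below the median of 0.22 that this scaling gives to all genes. Without a fold threshold, 3103 genes were called higher and 3036 lower, with 4 and 2 of the 9 members, 5 and 13 partners, 3 and 3 regulators, 2 paralogs lower and 1 chaperone lower. Leaving out 1 mouse at a time gave 1588 to 1970 genes called higher and 1026 to 1208 lower, 1 to 2 members lower, and for paralogs 0 to 1 higher and 0 to 1 lower. Xirp1 then ranged from -0.038 to 0.54, with -0.01 without control 1, and Fhl3 from -0.20 to 0.10, with 0.02 without control 4 and 0.06 without mutant mouse 4. With longest-transcript lengths, the shares of Ankrd1, Ankrd2 and Ankrd23 in controls were 0.280%, 46.3% and 53.4%. With a replicate block by the number in the sample titles, 1637 genes were called higher and 1036 lower, and with one by the number in the descriptions 1739 and 1083; both left 2 members higher and 1 lower. Mice of the same number did not deviate together on average (mean correlation -0.114 and -0.0302). With 1 correlation for each number, taken after the mean of each genotype was removed, this cannot show whether the numbers pair animals. Of the log2 fold changes recomputed for named genes, 692 kept their direction and their call by both thresholds together, 12 crossed into a call, 7 lost it and 8 turned sign. With 4 mice a genotype, the cause of the changes with scaling was not tested.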
